A study of Homo sapiens with 4 samples.

Results

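The E2F transcription factors and their DP partners were followed in ACHN, a cell line established from a human renal cell carcinoma. The 10 genes were chosen by name among the 36359 genes of the count table, and they are the 8 E2F genes (E2F1 to E2F8) with TFDP1 and TFDP2. The cells were transfected with lipofectamine and either a control siRNA (siNC, 2 libraries) or an siRNA against PRR11 (siPRR11, 2 libraries), so that all 4 libraries share the parental line and the transfection. The labels give neither the time after transfection nor which of the study's siPRR11 duplexes a library received, and whether the 2 libraries of a group came from separate cultures is not stated for the sequencing itself, so the p-values measure the spread between these libraries only, which may be technical. The study sequenced this pair of conditions to look for genes downstream of PRR11.

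E2F proteins bind the promoters of genes needed for DNA replication and cell cycle entry, mostly as dimers with a DP protein encoded by TFDP1 or TFDP2. E2F1, E2F2 and E2F3 are classed as activators, and RB1 holds them inactive until cyclin-dependent kinases phosphorylate it. E2F4 and E2F5 act mainly as repressors with the pocket proteins RBL1 and RBL2, E2F6 represses together with polycomb proteins, and the atypical E2F7 and E2F8 repress without a DP partner. The genes for E2F1, E2F7 and E2F8 are themselves known E2F targets. The libraries hold mRNA only and carry no information on the E2F proteins or their phosphorylated regulators.

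Because E2Fs can bind the promoters of E2F genes, the promoters of 6 members are shown first. RefSeq windows (GRCh38.p14) of 250 bases before to 50 bases after the start site were matched for 8 of the 10 members, all but E2F5 and E2F8. Where a gene had several windows, the one nearest to the 5′ end of the gene in the count table was taken. The E2F consensus was searched as TTTCCCGC, TTTCGCGC, TTTGCCGC and TTTGGCGC on both strands. The 150 bases before the start site are printed 5′ to 3′ on the strand of the gene, with the matches in capitals. The first 4 held a match, and E2F4 and E2F7 are shown because their mRNAs changed although these letters were not in their windows.
E2F1 (chr20:33686386-33686535, minus strand): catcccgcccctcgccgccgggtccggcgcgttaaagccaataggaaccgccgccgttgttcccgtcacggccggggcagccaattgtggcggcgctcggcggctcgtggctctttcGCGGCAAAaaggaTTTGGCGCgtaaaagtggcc
E2F2 (chr1:23531234-23531383, minus strand): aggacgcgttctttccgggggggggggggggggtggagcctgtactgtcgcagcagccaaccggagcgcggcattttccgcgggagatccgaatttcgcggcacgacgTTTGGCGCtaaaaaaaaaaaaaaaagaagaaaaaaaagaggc
E2F3 (chr6:20401729-20401878, plus strand): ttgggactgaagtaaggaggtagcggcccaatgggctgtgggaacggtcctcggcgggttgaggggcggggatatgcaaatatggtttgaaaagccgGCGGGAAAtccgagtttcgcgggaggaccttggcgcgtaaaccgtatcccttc
TFDP1 (chr13:113584603-113584752, plus strand): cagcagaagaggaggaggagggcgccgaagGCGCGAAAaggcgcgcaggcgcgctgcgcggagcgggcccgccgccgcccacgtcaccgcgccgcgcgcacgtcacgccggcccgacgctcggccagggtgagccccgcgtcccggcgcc
E2F4 (chr16:67192005-67192154, plus strand): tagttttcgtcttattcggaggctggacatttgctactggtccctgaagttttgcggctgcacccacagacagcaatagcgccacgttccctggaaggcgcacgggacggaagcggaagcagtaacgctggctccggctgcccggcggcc
E2F7 (chr12:77065570-77065719, minus strand): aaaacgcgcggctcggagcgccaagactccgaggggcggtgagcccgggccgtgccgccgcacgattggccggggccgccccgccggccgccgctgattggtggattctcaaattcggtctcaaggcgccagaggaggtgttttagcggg

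E2F1 held 2 matches, at bases -33 to -26 and -20 to -13 from the start site. E2F2 held 1 match at -42 to -35, E2F3 held 1 at -53 to -46 and TFDP1 held 1 at -120 to -113. Thus 4 of 8 member windows held the consensus, against 3.31% of all 35116 windows of the table. All 3 activator genes were among the 4, and the windows of the repressors E2F4, E2F6 and E2F7 were not. CCAAT on either strand, the letters bound by NF-Y, was found in the windows of 4 of the 8 members (E2F1, E2F3, E2F7 and TFDP2) against 34.6% of all windows, and E2F3 and E2F7 held 4 copies each. The CHR element (TTTGAA or TTCGAA on either strand) of late cell cycle genes was found in the E2F3 window only, against 16.4% of all windows. A match describes the letters in the window and is not evidence of binding in these cells.

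Counted reads per library were between 59003839 and 92612749, and each member had between 323 and 7207 reads in each library, so the counting error of any single value was at most 5.56% (E2F2, siNC library 1). Levels are given as CPM (counts scaled to library size after TMM normalization) for comparisons between libraries and as the deposited RPKM, which divides by exonic length, for comparisons between genes. Changes are log2 fold changes of siPRR11 against siNC with their standard errors (SE), fitted in edgeR by quasi-likelihood. The p-values were adjusted over all 21630 genes tested (Benjamini-Hochberg), and a gene was called at an adjusted p-value under 0.05. PRR11 itself was at 41.3 and 40.4 CPM in siNC and 15.3 and 14.0 CPM in siPRR11, so the targeted mRNA was lower in both libraries labelled siPRR11. Among the marker genes of renal epithelium and of ACHN cells, all 9 were above 1 RPKM in every library. Of 10 markers of other cell types, 6 were below 1 RPKM in every library, with PTPRC, CD3E and PECAM1 at or below 0.0122 RPKM. Of the other 4, ACTA2 and CD68 were not called, while PDGFRB (log2 fold change 1.54, edgeR adjusted p = 2.33e-05) and COL1A1 (0.90, edgeR adjusted p = 0.000329) were called higher in siPRR11. The summed level of the 10 was 33.0 to 38.5 RPKM in siNC and 43.6 to 49.95 RPKM in siPRR11, and the part of these markers in the changes below was not tested.

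All 10 members passed the filter on low counts, and 4 were called. E2F1, E2F7 and E2F8 rose and E2F4 fell. This is 4 of 10 genes, beside 16.7% of all genes tested and 23.1% of the 14193 genes whose average log2 CPM was 1 or more. By direction, 3 of 10 members were called higher beside 7.61% of all genes, and 1 of 10 was called lower beside 9.14%. Without siPRR11 library 2, E2F7 alone was called higher. The libraries of the groups did not overlap for 8 of the 10 members, where 58.4% of all genes tested were without overlap. The median log2 fold change of the 10 members was 0.036, against 0.0022 over all genes tested. The activator and the repressor class each held genes that moved and genes that were not called. In bulk RNA, a different share of cells in a given state and a different amount of mRNA per cell cannot be told apart.

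**Figure D1:**
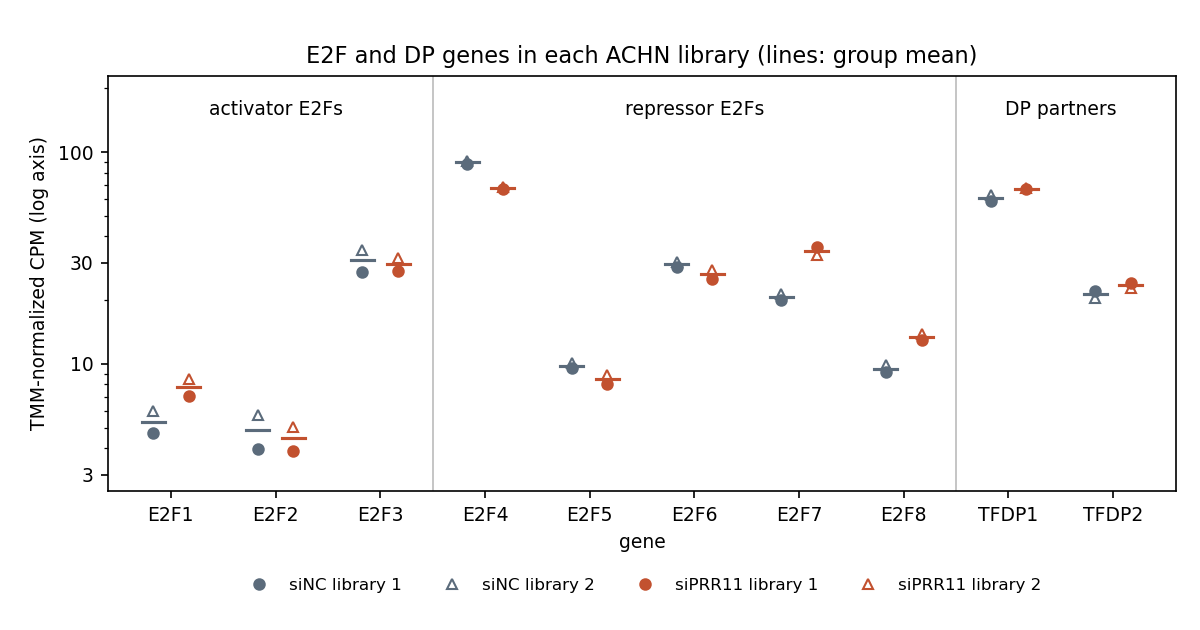
TMM-normalized CPM (log axis) of the 10 genes in each library, with circles for library 1, triangles for library 2, grey for siNC, orange for siPRR11, and a short line at each group mean. The siPRR11 points of E2F1, E2F7 and E2F8 lie above both siNC points, those of E2F4 lie below, and those of E2F2 and E2F3 lie within the siNC range or beside it.

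Among the activators, E2F1 was the gene that changed. E2F1, which drives entry into S phase and can also switch on apoptosis genes, lies on chromosome 20 from 33675683 to 33686404 on the minus strand of GRCh38. It was at 4.70 and 5.98 CPM in the siNC libraries and at 7.07 and 8.44 CPM in the siPRR11 libraries. Both siPRR11 values were above both siNC values, although the libraries within each group were also spread apart. The mean rose from 5.34 ± 0.91 to 7.75 ± 0.974 CPM (SD, n = 2 each), to 145% of the control. The log2 fold change was 0.54 (SE 0.15, edgeR adjusted p = 0.0278). Of the called members, E2F1 had the largest SE, and its call depended on the libraries. Without siNC library 1 its log2 fold change was 0.37 (edgeR adjusted p = 0.0882), and without siPRR11 library 2 it was 0.41 (edgeR adjusted p = 0.179). With limma on log2(RPKM + 1) it was 0.42 on that scale (adjusted p = 0.0945). In both groups E2F1 was higher in library 2 than in library 1. With a block for the replicate number in edgeR its log2 fold change was 0.54 (adjusted p = 8.53e-06). Libraries of the same number are not known to share more than that number. Across 14193 genes, their deviations from the group means had a correlation of 0.49.

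E2F2, the activator with the lowest level, lies on chromosome 1 from 23506430 to 23531220. It was at 3.95 and 5.76 CPM in siNC and at 3.88 and 5.02 CPM in siPRR11, and the groups overlapped. Its log2 fold change was -0.12 (SE 0.191, edgeR adjusted p = 0.731), and it became 0.16 without siNC library 2. E2F3, which encodes an activator long isoform and a shorter isoform that a count per gene does not separate, lies on chromosome 6 from 20401906 to 20493715. It was at 27.2 and 34.6 CPM in siNC and at 27.4 and 31.6 CPM in siPRR11. The groups overlapped here too, and the log2 fold change was -0.066 (SE 0.117, edgeR adjusted p = 0.758), or 0.11 without siNC library 2. In all 3 activators, library 2 was higher than library 1 in each group, and for E2F2 and E2F3 this difference within groups was larger than the difference between the group means.

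Among the repressors, E2F4 moved opposite to E2F7 and E2F8. E2F4, the main E2F of resting cells, lies on chromosome 16 from 67192169 to 67198918. It was at 88.2 and 91.1 CPM in siNC and at 67.0 and 68.1 CPM in siPRR11. The groups were far apart relative to the spread within them. The mean fell from 89.6 ± 2.06 to 67.6 ± 0.816 CPM (SD, n = 2 each), to 75.4% of the control, and the log2 fold change was -0.41 (SE 0.0739, edgeR adjusted p = 0.00317). It was called in all 12 other settings and in each was between -0.43 and -0.34.

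E2F5 and E2F6 were each a little lower in both siPRR11 libraries, without being called. E2F5, a pocket protein partner like E2F4, was at 9.58 and 10.1 CPM in siNC and at 8.04 and 8.88 CPM in siPRR11. Its log2 fold change was -0.22 (SE 0.113, edgeR adjusted p = 0.227). Genes of the opposite strand cover 18.6% of its exonic bases, and since the strand setting of the counting is not given in the sources used here, part of its reads may belong to them. E2F6 (chromosome 2, 11444375 to 11466177) was at 28.8 and 30.3 CPM in siNC and at 25.1 and 27.9 CPM in siPRR11. Its log2 fold change was -0.16 (SE 0.0912, edgeR adjusted p = 0.274). For both genes the nearest libraries of the groups lay closer together than the siPRR11 libraries did to each other. A change was not shown with 2 libraries per group.

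E2F7 changed most of the 10 members. E2F7, an atypical repressor with 2 DNA-binding domains, lies on chromosome 12 from 77021247 to 77065580. It was at 20.1 and 21.4 CPM in siNC and at 35.5 and 32.8 CPM in siPRR11, a gap wider than either group. The mean rose from 20.7 ± 0.901 to 34.2 ± 1.97 CPM (SD, n = 2 each), to 165% of the control. The log2 fold change was 0.72 (SE 0.0909, edgeR adjusted p = 0.000361), and it was called in all 12 other settings, between 0.62 and 0.78. E2F8, the other atypical repressor, lies on chromosome 11 from 19224063 to 19241620. It was at 9.18 and 9.85 CPM in siNC and at 12.9 and 13.9 CPM in siPRR11, again with the groups apart. The mean rose from 9.51 ± 0.475 to 13.4 ± 0.678 CPM (SD, n = 2 each), to 141% of the control, and the log2 fold change was 0.50 (SE 0.107, edgeR adjusted p = 0.00826). Its call was kept in 11 of 12 other settings and was lost without siPRR11 library 2, where the log2 fold change was 0.44 (edgeR adjusted p = 0.0694).

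The DP partners stood slightly higher in siPRR11 and were not called. TFDP1, the more abundant of them, lies on chromosome 13 from 113584721 to 113641470. It was at 58.8 and 62.5 CPM in siNC and at 66.8 and 67.5 CPM in siPRR11. The groups were apart, with a log2 fold change of 0.15 (SE 0.0765, edgeR adjusted p = 0.219). TFDP2 (chromosome 3, 141944428 to 142149544) was at 22.1 and 20.5 CPM in siNC and at 24.1 and 22.9 CPM in siPRR11. Its log2 fold change was 0.14 (SE 0.0921, edgeR adjusted p = 0.355). None of the exonic bases of 8 members is shared with another gene of the table, the exceptions being E2F5 and, with 0.169% on the opposite strand, E2F8. The 4 rows of the table named as pseudogenes of E2F3 or E2F6 held at most 6 reads in any library.

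**Figure D2:**
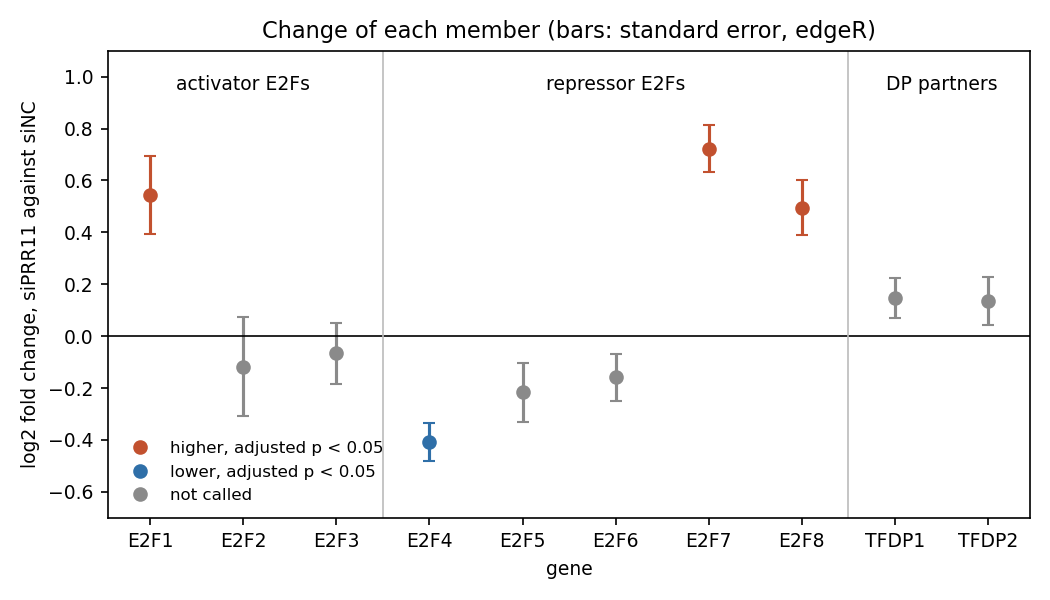
Log2 fold change of siPRR11 against siNC (vertical axis) for each member, with the standard error from edgeR as bars, orange for genes called higher, blue for the gene called lower and grey for genes not called. The called genes are E2F1 at 0.54, E2F7 at 0.72, E2F8 at 0.50 and E2F4 at -0.41, while the other 6 lie between -0.22 and 0.15.

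Per unit of length, E2F4 was the most abundant member in both groups, at 24.6 ± 0.545 RPKM in siNC and 19.2 ± 0.19 RPKM in siPRR11 (SD, n = 2 each). TFDP1 followed with 15.9 ± 0.664 RPKM in siNC and 18.2 ± 0.1 RPKM in siPRR11, where it had come close to E2F4. Next in both groups came E2F6 (7.15 and 6.62 RPKM) and E2F3 (5.88 and 5.80 RPKM). Below them lay E2F7 at 3.23 RPKM in siNC and 5.51 RPKM in siPRR11, where its libraries overlapped those of E2F3. E2F8 (2.26 and 3.29 RPKM) and E2F1 (2.10 and 3.15 RPKM) overlapped each other in both groups. TFDP2 (1.76 and 2.00 RPKM), E2F5 (1.63 and 1.45 RPKM) and E2F2 (0.875 and 0.828 RPKM) closed the order. All other neighbours in the order were apart in their 2 libraries, and the order of the 10 genes by mean was the same in siNC and siPRR11.

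The sum of the 8 E2F mRNAs was 45.9 and 49.6 RPKM in the siNC libraries and 44.6 and 47.0 RPKM in the siPRR11 libraries, and the groups overlapped. What differed was the make-up of this sum. E2F4 held 52.8% and 50.4% of it in siNC and 42.7% and 41.1% in siPRR11. E2F7 and E2F8 together held 11.6% and 11.4% in siNC and 20.0% and 18.5% in siPRR11. E2F1 held 4.03% and 4.74% in siNC and 6.44% and 7.28% in siPRR11. These shares rest on the same changes as the tests above and add no separate test, and RPKM depends on the exonic length of the annotation rather than that of the transcripts in use.

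**Figure D3:**
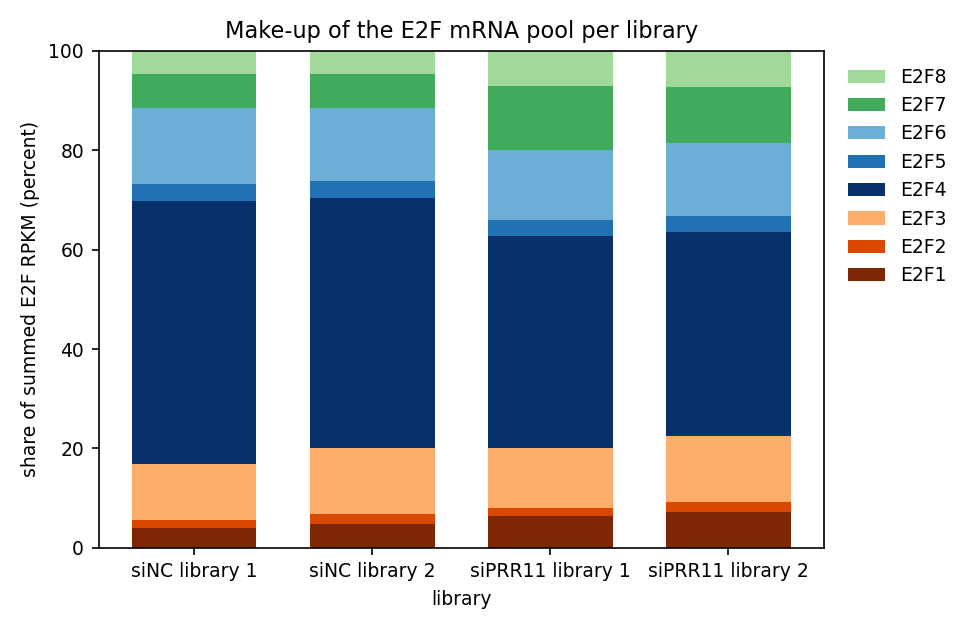
Share of each E2F gene in the summed RPKM of the 8 E2F genes (percent, vertical axis) in each of the 4 libraries, with activators in brown to orange, E2F4 to E2F6 in blue and E2F7 and E2F8 in green. E2F4 takes 52.8% and 50.4% in siNC and 42.7% and 41.1% in siPRR11, and the green part grows from 11.6% and 11.4% to 20.0% and 18.5%.

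To compare the classes, the summed RPKM of E2F1 to E2F3 was divided by that of E2F4 to E2F8 in each library. The log2 ratio was -2.30 and -1.99 in siNC and -1.98 and -1.79 in siPRR11, so the nearest libraries of the groups almost coincided. The mean was higher by 0.26 in siPRR11, beside an SD of 0.216 within siNC and of 0.14 within siPRR11 (n = 2 each). The difference was 0.11 without siNC library 1, 0.16 without siPRR11 library 2 and 0.41 without siNC library 2, so its size depended on single libraries, and it was not tested. The repressor class had moved in both directions. Against E2F4, E2F5 and E2F6 alone, the log2 ratio of the activators was -2.08 and -1.77 in siNC and -1.57 and -1.40 in siPRR11, a difference of 0.44. Against E2F7 and E2F8, it was 0.54 and 0.81 in siNC and 0.013 and 0.28 in siPRR11, a difference of -0.53. Per class, 1 of 3 activators was called (higher), with a median log2 fold change of -0.066 over the 3 genes. Of the 5 repressors 3 were called, 2 higher and 1 lower, with a median of -0.16.

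The regulators of the E2Fs were taken from a list of 37 genes, all of which were tested and 4 of which (CCNE1, CCNE2, MYBL2 and RBL1) are also in the target list below. Of these, 12 (32.4%) were called, 9 higher and 3 lower, beside 16.7% of all genes tested (7.61% higher and 9.14% lower) and 23.1% of those with an average log2 CPM of 1 or more. The fraction called lower was thus near that of all genes. The median log2 fold change was 0.12 against 0.0022 over all genes tested. The smaller groups within the list are too small to be read against these shares, and their counts are given as a description. RB1, the partner of the activators, was at 26.1 and 25.1 CPM in siNC and at 29.98 and 29.6 CPM in siPRR11 (log2 fold change 0.22, SE 0.0858, edgeR adjusted p = 0.107). RBL1, a partner of E2F4 and itself an E2F target, rose from 15.5 and 16.3 CPM to 20.4 and 19.7 CPM (log2 fold change 0.34, SE 0.0938, edgeR adjusted p = 0.0282). The call of RBL1 was lost without siNC library 1 (0.30, edgeR adjusted p = 0.0602), without siPRR11 library 1 (0.32, adjusted p = 0.216) and without siPRR11 library 2 (0.36, adjusted p = 0.117). RBL2, the other partner of E2F4, was at 34.9 and 37.5 CPM in siNC and at 39.7 and 39.1 CPM in siPRR11 (log2 fold change 0.12, edgeR adjusted p = 0.354). The libraries of the groups did not overlap for any of the 3 pocket protein genes, which was also so for 58.4% of all genes tested.

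In the MuvB core, which joins E2F4 and RBL1 or RBL2 in the DREAM repressor complex, 2 of 5 genes were called, both higher. Of all genes tested, 16.7% were called (7.61% higher), and 23.1% of those with an average log2 CPM of 1 or more. LIN9 rose from 9.90 and 9.49 CPM to 14.7 and 13.7 CPM, a log2 fold change of 0.55. The second gene, LIN54, named after its values were seen, had a log2 fold change of 0.45. FOXM1, which works with MuvB at late cell cycle genes, rose from 79.3 and 75.3 CPM to 124.7 and 119.7 CPM (log2 fold change 0.66, SE 0.0748, edgeR adjusted p = 0.000185). Of the 8 polycomb partners of E2F6, 1 gene (RNF2) was called, or 12.5%, which is below both the 16.7% and the 23.1%. It encodes a ubiquitin ligase of histone H2A and fell from 21.2 and 21.7 CPM to 16.3 and 15.6 CPM, a log2 fold change of -0.43, and its adjusted p in edgeR's test was 0.0845 without siPRR11 library 2, where the value was -0.39. Of the 4 genes for the degradation of E2F1, 1 was called higher, CCNF, named after its values were seen, with a log2 fold change of 0.41, a share near the 23.1% of genes called at a log2 CPM of 1 or more.

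The RB kinases and their inhibitors held changes in both directions, with 4 of 15 genes called higher and 2 called lower, beside 7.61% and 9.14% of all genes. CDKN1A, the inhibitor p21, rose from 45.5 and 44.2 CPM to 97.5 and 90.5 CPM (log2 fold change 1.07). CDKN2C, the CDK4 and CDK6 inhibitor p18, rose from 23.5 and 20.8 CPM to 32.7 and 31.6 CPM (0.54). CDK2, the kinase of cyclin E and cyclin A, rose by a log2 fold change of 0.35 and was named after its values were seen. The D cyclins, which start RB phosphorylation, diverged. CCND3 rose from 64.9 and 69.5 CPM to 105.1 and 115.4 CPM (0.72). CCND2 fell from 3.35 and 3.86 CPM to 1.46 and 1.82 CPM (-1.13), or by 0.28 on the log2(RPKM + 1) scale, which understates changes at this low level. CCND1 was at 142.8 and 237.1 CPM in siNC and at 90.9 and 138.1 CPM in siPRR11 (-0.73, SE 0.208, edgeR adjusted p = 0.0326). The size of the CCND1 fall depended on single libraries. Its log2 fold change was -0.32 without siNC library 2 and -0.46 without siPRR11 library 1. It was -1.05 without siNC library 1 and -1.06 without siPRR11 library 2. With all libraries the adjusted p of CCND1 was 0.349 in DESeq2. With a block for the replicate number it was 3.29e-27 in edgeR, at a log2 fold change of -0.72.

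Among known targets of the E2Fs, more genes rose than fell. These targets, like the regulators above, were listed with earlier results of these data known, so the counts are a description. Of 64 target genes of the G1/S transition, 32 were called higher, 4 were called lower and 28 were not called. Of all genes tested, 7.61% were called higher and 9.14% lower. In either direction, 56.25% of these targets were called, beside 23.1% of genes with an average log2 CPM of 1 or more. All 64 were at that level. The 64 had a median log2 fold change of 0.28 against 0.0022 over all genes tested, and 54 of them had a value above 0. The largest rise was that of RRM2, the regulated subunit of ribonucleotide reductase, from 72.0 and 71.9 CPM to 159.3 and 166.5 CPM (log2 fold change 1.18, SE 0.0733, edgeR adjusted p = 3.51e-06). POLA2, a subunit of DNA polymerase alpha, had a log2 fold change of 0.79, and CDT1, a licensing factor of replication origins, had one of 0.78. FANCD2, of interstrand crosslink repair, had 0.78, and TYMS, thymidylate synthase, had 0.75.

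The 4 targets that fell were RRM1, CHAF1A, RFC2 and MCM6. RRM1, the large subunit of the enzyme that RRM2 belongs to, fell from 105.4 and 101.3 CPM to 41.1 and 39.8 CPM (log2 fold change -1.35, SE 0.0764, edgeR adjusted p = 1.93e-06), so the subunits moved in opposite directions. CHAF1A, of the histone chaperone CAF-1, had a log2 fold change of -0.53. RFC2, of the clamp loader, had -0.38, and without siPRR11 library 2 it had -0.33 (edgeR adjusted p = 0.0659). MCM6, of the replicative helicase, had -0.36, and without siPRR11 library 1 it had -0.25 (edgeR adjusted p = 0.239).

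In a list of 12 apoptosis genes under E2F1, 5 were called (41.7%), all higher. Of all genes tested, 16.7% were called and 7.61% were called higher. Of genes with an average log2 CPM of 1 or more, the level of all 12, 23.1% were called. The median log2 fold change of the 12 was 0.29. BBC3, which encodes the BH3-only protein PUMA, rose from 11.3 and 12.6 CPM to 18.3 and 18.4 CPM (0.62). BCL2L11, which encodes the BH3-only protein BIM, had a log2 fold change of 0.54. TP53INP1 and SIVA1, named after their values were seen, were also among the called genes. Known p53 targets were among the called genes (BBC3 and TP53INP1, like CDKN1A above) and among those not called (PMAIP1 and APAF1). The other 7 genes of the list were not called, among them PMAIP1 (0.27) and APAF1 (0.19), named after their values were seen. Of the targets of both lists, 37 were called higher with all libraries and 24 without siPRR11 library 2, while 4 and 3 were called lower. With limma on log2(RPKM + 1), adjusted p-values were above the threshold for RBL1 (0.0854), CCND1 (0.212), RNF2 (0.0602), MCM6 (0.131) and BCL2L11 (0.0692).

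The E2F consensus of the promoters above could be set beside these changes. Of the 56 G1/S targets with a RefSeq window, 29 held a match, which is 51.8% beside 3.99% of all 27305 genes with a window. The 29 had a median log2 fold change of 0.33, with 16 called higher and 1 lower. The 27 without a match had a median of 0.28, with 13 called higher and 3 lower. The difference between these groups of targets was not tested. Over all genes tested that had a window, 14.4% of the 716 with a match were called higher and 8.52% lower. Of the 10988 without a match, 9.07% were called higher and 11.8% lower. The median log2 fold changes of these groups were 0.028 and -0.014. Genes are not independent replicates, so these shares are a description of the 4 libraries.

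**Figure D4:**
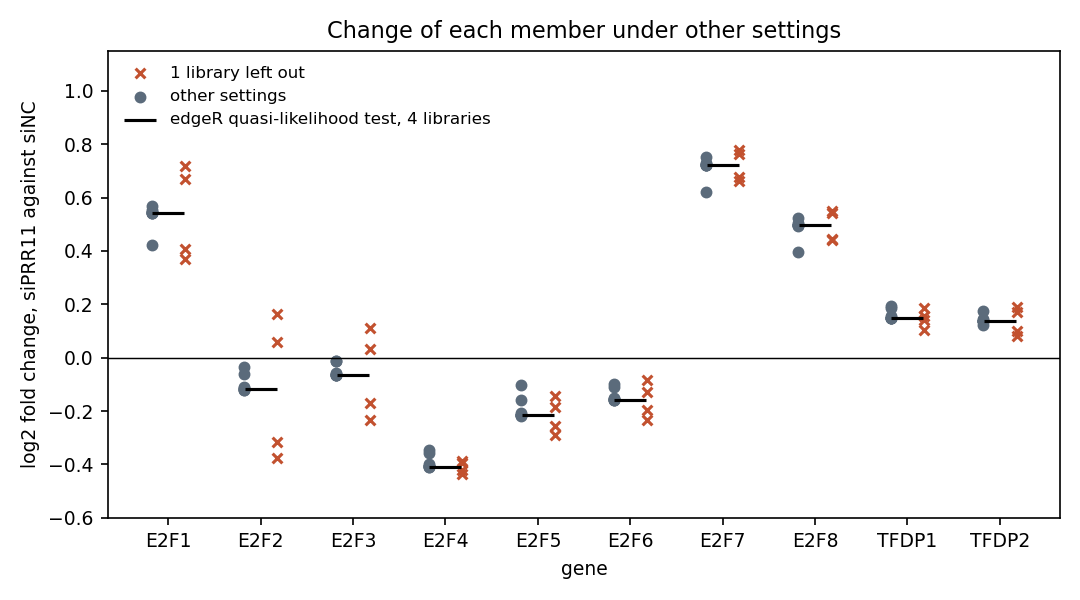
Log2 fold change of siPRR11 against siNC (vertical axis) of each member with all 4 libraries in edgeR's quasi-likelihood test (line), in the 8 other settings (grey circles) and with 1 library left out in turn (orange crosses). E2F4 stays between -0.43 and -0.34 and E2F7 between 0.62 and 0.78, E2F1 ranges from 0.37 to 0.72, and E2F2 and E2F3 take both signs.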

How the data were processed

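RNA of ACHN cells (2 siNC and 2 siPRR11 libraries, grouped by their labels) was made into stranded mRNA libraries and sequenced on a DNBSEQ-T7 instrument. Per the study's methods and the submitters' processing notes, reads were trimmed (Trimmomatic 0.36), aligned to GRCh38 with STAR and counted with featureCounts (Subread 1.5.1). The annotation release and the strand setting of the counting are not given in the sources used here. The authors deposited raw, unnormalized counts of reads on each gene. They also deposited RPKM values, that is, counts over exonic length and column total. The chi-square per degree of freedom between the libraries of a group was 20.1 (siNC) and 14.1 (siPRR11), so none repeats another.

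The 10 members and all lists were chosen with earlier results of these data known. Counts were normalized by TMM (factors 0.983 to 1.018), filtered by filterByExpr and tested across all 21630 genes with edgeR 4.0.16 (quasi-likelihood test, condition as the only term, R 4.3.3), with Benjamini-Hochberg adjustment. A standard error is the size of the log2 fold change divided by the square root of F. Other settings tried were DESeq2 1.42.0, RLE normalization, the exact test of edgeR, a minimum of 10 counts per library or no filter, a block for the replicate number, limma 3.58.1 with a variance trend on log2(RPKM + 1) or log2(RPKM + 0.1), and each library left out, where the lone library is assumed to vary like the other group. In simulated counts of the same 21630 genes, 62 of 100 genes changed by 0.5 on the log2 scale and 99 of 100 changed by 1 were recovered. The changed genes had means above 100 reads, and 9 unchanged genes were called. Every gene was given the same dispersion, so a spread that differs between genes was not simulated. Besides PRR11, the members and the pocket proteins, genes named were those past 0.05 with a mean log2 CPM of 1 or more and the largest changes of each list, at most 5 in each direction, or 3 for apoptosis genes. A result for a gene under this rule is not reported here.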

Additional observations from a re-analysis of the deposited data

How the results depend on the processing

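With 2 libraries per group, changes of about 0.5 on the log2 scale can be missed, as in the simulated counts. PRR11, E2F4 and E2F7 kept their call in all 12 other settings, E2F8 in 11 and E2F1 in 8. E2F2, E2F3, E2F5, E2F6, TFDP1 and TFDP2 were called in none of them. E2F1 was not past the threshold with limma on log2(RPKM + 0.1), at 0.57, or on log2(RPKM + 1), at 0.42. With each library left out in turn, the log2 fold change was between 0.37 and 0.72 for E2F1, between 0.44 and 0.55 for E2F8, between -0.38 and 0.16 for E2F2 and between -0.23 and 0.11 for E2F3, where E2F2 and E2F3 changed sign without siNC library 2 (0.16 and 0.11) and without siPRR11 library 1 (0.057 and 0.034). Members called higher were then 1 to 3, target genes called higher 24 to 40, all genes called higher 945 to 2173 and all genes called lower 1227 to 2417, the lowest counts over all genes being those without siPRR11 library 1.

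Over all genes, 1645 were called higher and 1977 lower. Limma on log2(RPKM + 1) called 1091 higher and 684 lower, and on log2(RPKM + 0.1) it called 1152 higher and 726 lower. With either pseudocount 1 regulator was called lower, against 3 in edgeR's quasi-likelihood test. With E2F4, E2F5 and E2F6 alone as repressors, the log2 difference of the activator to repressor ratio was 0.44 in place of 0.26. The causes of these differences were not tested.

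Libraries of the same number are not known to share more than that number, but their deviations from the group means had a correlation of 0.49 across 14193 genes. What lies behind this correlation was not tested. With the replicate block, 3338 genes were called higher and 3650 lower, 5 regulators were called lower, RB1 was past the threshold at 0.22 (edgeR adjusted p = 0.0153), and the calls of the 10 members did not change.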
